A study of Mus musculus with 6 samples.

Results

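The enolase family was followed in the abdominal aorta as 4 genes of the 55426 listed in the deposited table, *Eno1*, *Eno1b*, *Eno2* and *Eno3*. They were taken by their gene names, and *Eno1* and *Eno1b* were also added together. The family was chosen by measured values, namely the TPM of *Eno1b* and *Eno1* in this same comparison of the groups, so the differences of the members are descriptions and carry no test. *Eno1* (ENSMUSG00000063524) lies on the plus strand of chromosome 4 of GRCm38, at 150236721 to 150248879. *Eno1b* (ENSMUSG00000059040) lies on the plus strand of chromosome 18, at 48045335 to 48048412, and is annotated as a protein-coding retrogene. *Eno2* (ENSMUSG00000004267) lies on the minus strand of chromosome 6, at 124760053 to 124769673, and *Eno3* (ENSMUSG00000060600) on the plus strand of chromosome 11, at 70657202 to 70662513. RNA-seq libraries came from 3 control mice and 3 *Prdm16*SMKO mice, all male and labelled C57BL/6J, at 1 library per mouse. *Prdm16*SMKO mice were *Prdm16* fl/fl with *Myh11*-CreERT2, a tamoxifen-inducible Cre made in vascular smooth muscle cells (VSMCs) from a cassette on the Y chromosome, and control mice carried *Myh11*-CreERT2 without the floxed alleles. The methods state that the floxed and the Cre line were backcrossed to C57BL/6J, without the number of generations. They give tamoxifen by gavage to mice of 8 to 10 weeks at 75 mg/kg/day for 5 days, with aneurysm induction 2 weeks later. The time between tamoxifen and the collection of RNA is not given in the sources used here. The whole vessel was sequenced, so cells that lack *Myh11* kept their *Prdm16* and were part of every library.

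Enolase is the glycolytic enzyme that turns 2-phosphoglycerate into phosphoenolpyruvate, between phosphoglycerate mutase and pyruvate kinase. The active enzyme is a dimer. *Eno1* encodes alpha-enolase, made in most tissues, *Eno2* encodes gamma-enolase, known as neuron-specific enolase, and *Eno3* encodes beta-enolase, the form of striated muscle. Alpha-enolase is also known at the cell surface, where it binds plasminogen, the precursor of the protease plasmin. *Eno1b* is a retrogene, a copy that arose when a spliced *Eno1* transcript was reverse-transcribed and inserted elsewhere in the genome. Reads that match a gene and such a copy equally well can be placed on either by an aligner or a counting tool.

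The coding sequence was 1305 bases long in each of the 4 genes (GENCODE M21 on GRCm38). *Eno1* and *Eno1b* differed at 8 of these bases and were 99.4% identical. The other pairs were far less alike, with 75.1% for *Eno1* and *Eno2*, 76.7% for *Eno1* and *Eno3* and 76.8% for *Eno2* and *Eno3*. The differing bases are shown because they are the only coding bases at which a read of *Eno1* and a read of *Eno1b* differ in the reference. Counted from 1 at the A of the start codon, with the *Eno1* base before the position and the *Eno1b* base after it, the substitutions are T726C, C747T, G750A and T816G in exon 8 of *Eno1*, T1047C and A1056G in exon 9, and T1224C and C1233T in exon 11. All 8 fall on the third base of a codon and leave the amino acid as it is. The stretches of the *Eno1* coding sequence that hold them are given 5′ to 3′ with the differing bases in capitals. They span positions 711 to 831, 1032 to 1071 and 1209 to 1248 of the coding sequence, on the plus strand of chromosome 4 from 150246613 to 150246733, from 150247617 to 150247834 and from 150248093 to 150248498, and the second and the third stretch each cross an intron.
Eno1 coding 711 to 831: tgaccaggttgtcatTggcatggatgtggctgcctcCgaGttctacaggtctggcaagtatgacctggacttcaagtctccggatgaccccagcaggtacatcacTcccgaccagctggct
Eno1 coding 1032 to 1071: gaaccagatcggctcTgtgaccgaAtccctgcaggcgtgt
Eno1 coding 1209 to 1248: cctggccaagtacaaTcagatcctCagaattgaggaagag
The 725 coding bases before position 726 and the 72 after position 1233 are the same in both genes. Cut into windows of 151 bases, the length of 1 read, the main *Eno1* transcript (2027 bases in 12 exons) shared 907 of its 1877 windows, or 48.3%, letter for letter with *Eno1b*. Within the coding sequence 672 of 1155 windows were shared, or 58.2%. The main *Eno1b* transcript (1791 bases in 2 exons) shared 823 of its 1641 windows with *Eno1*, or 50.2%. No window of *Eno1* or *Eno1b* occurred in *Eno2* or *Eno3* (0 of 1877 and 0 of 1641). These shares are for single reads. The libraries hold pairs of reads, and the share of pairs that match both genes was not computed. The reads themselves were not used here, so which of the 8 bases the reads of each library carried was not tested.

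Expression was given as TPM, the share of a gene in all transcripts of its library, with the same total in the 6 libraries. Rows of 45S ribosomal RNA held 15.6% to 31.4% of this total and mitochondrial rows 15.8% to 27.4%, so levels of other genes depend on these shares. The 45S share was highest in control replicate 3 (31.4%) and *Prdm16*SMKO replicate 2 (29.9%). TPM is corrected for transcript length, so that levels of the members can be set side by side. The authors' values keep no record of read depth, which leaves their counting error unknown. The smooth muscle genes that mark this tissue were high in every library, with the summed TPM of 7 VSMC markers at 14793 to 25106 in control and 11360 to 17397 in *Prdm16*SMKO mice. *Prdm16*, the targeted gene, was at 33.4, 36.8 and 30.8 TPM in control and at 20.8, 27.7 and 14.8 TPM in *Prdm16*SMKO mice, with no overlap and a limma Benjamini-Hochberg adjusted p of 0.376. Other cell types were unequal between libraries. *Prdm16*SMKO replicate 1 held most of the sympathetic neuron and skeletal muscle markers, *Prdm16*SMKO replicate 2 had the highest erythroid sum (18613 TPM, against 1106 to 4730 in the other libraries) and *Prdm16*SMKO replicate 3 the highest adipocyte sum (2824 TPM, against 467 to 1110). In whole tissue, fewer cells of a type and less RNA per cell cannot be told apart. Over all genes, 15775 reached the minimum mean of 0.5 TPM and were tested by limma on log2(TPM + 0.5), and 56 of them (0.355%) passed an adjusted p of 0.05. The groups did not overlap for 2017 genes, or 12.8%. All 4 members were above the minimum, 1 of them (*Eno1b*) was called and 2 (*Eno1* and *Eno1b*) did not overlap, which is how they came to be chosen and supports nothing further.

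*Eno1* was the main enolase of control aortas and was lower in *Prdm16*SMKO mice. Control replicates 1 to 3 had 114, 132 and 80.1 TPM, and *Prdm16*SMKO replicates 1 to 3 had 65.2, 42.0 and 74.2 TPM. The groups did not overlap, with the lowest control library just above the highest *Prdm16*SMKO library. Group means were 109 ± 26.3 and 60.5 ± 16.6 TPM (SD, n = 3 each), a difference of −0.85 on the log2(TPM + 0.5) scale with a standard error (SE) of 0.26. Ranked among the genes tested, its mean stood at percentile 95.3 in control aortas and at percentile 91.1 after knockout.

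The retrogene moved the other way and by far more. *Eno1b* was at 0.44, 1.50 and 0.84 TPM in control mice and at 96.1, 58.3 and 107 TPM in *Prdm16*SMKO mice. All 3 *Prdm16*SMKO libraries thus stood far above every control library. Group means were 0.927 ± 0.535 and 87.1 ± 25.5 TPM (SD, n = 3 each), a log2(TPM + 0.5) difference of 5.96 (SE 0.32) and a ratio of means of 94.0. The number of tested genes with a larger positive difference was 0 of 15775. *Eno1b* went from percentile 12.9 in control aortas to percentile 94.2 after knockout, above *Eno1* itself in all 3 *Prdm16*SMKO libraries.

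**Figure D1:**
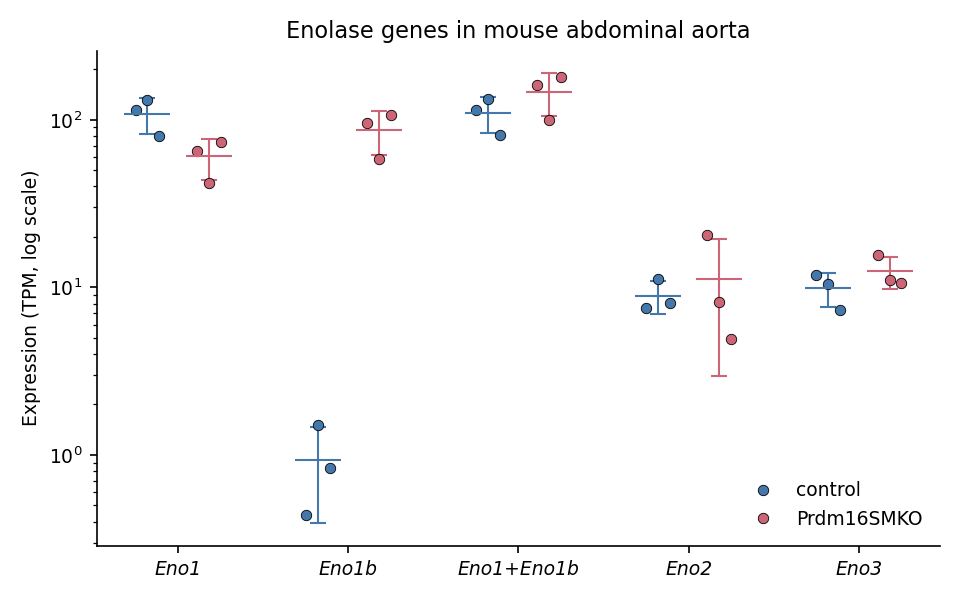
TPM on a log axis of *Eno1*, *Eno1b*, their sum, *Eno2* and *Eno3* in 3 control (blue) and 3 *Prdm16*SMKO (red) libraries. Points are libraries in replicate order, and lines with bars are the mean ± SD. *Eno1b* stands at 0.44 to 1.50 TPM in control and 58.3 to 107 TPM in *Prdm16*SMKO libraries, while the groups overlap for the sum, *Eno2* and *Eno3*.

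Added together, *Eno1* and *Eno1b* give a level that depends little on the row to which shared reads were assigned. TPM divide by transcript length, and by the lengths above 1 read weighs 1.13 times as much on the *Eno1b* row. The sum was 114, 133 and 80.9 TPM in control and 161, 100 and 181 TPM in *Prdm16*SMKO mice. *Prdm16*SMKO replicate 2 lay within the control range, and replicates 1 and 3 above it. Means were 110 ± 26.5 and 148 ± 42.1 TPM (SD, n = 3 each), a log2 difference of 0.41 (SE 0.26). The sum was thus higher on average by less than the distance between the highest and the lowest library within either group, and the lower level of the *Eno1* row did not appear in it. With *Eno1b* weighted by its transcript length, a setting added after the data were seen, the sum was 109 ± 26.5 and 137 ± 39.1 TPM (SD, n = 3 each), the groups again overlapped and the log2 difference was 0.31.

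The percent of this sum on the *Eno1b* row was low in control mice and nearly the same in all *Prdm16*SMKO mice. It was 0.385%, 1.12% and 1.04% in control and 59.6%, 58.1% and 59.0% in *Prdm16*SMKO mice, with means of 0.849 ± 0.404% and 58.9 ± 0.719% (SD, n = 3 each). Scaling of the libraries cannot change this percent. The 3 *Prdm16*SMKO libraries held nearly the same percent, although their *Eno1b* TPM differed by a factor of 1.83 between the lowest and the highest. The erythroid, adipocyte, neuron and skeletal muscle sums each set 1 *Prdm16*SMKO library apart. All 5 macrophage markers had a higher mean of log2 values in *Prdm16*SMKO mice, 4 at an unadjusted limma p under 0.05. Of 7 VSMC markers 6 had a lower mean, 2 of them at that p, which 8.74% of all genes reached. Limma called 0 in both lists (0.355% of all genes). The T and B cell sum was 0.25 to 1.91 TPM in control and 2.04 to 2.34 TPM in *Prdm16*SMKO mice, without overlap. The part of cell types in this percent was not tested.

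**Figure D2:**
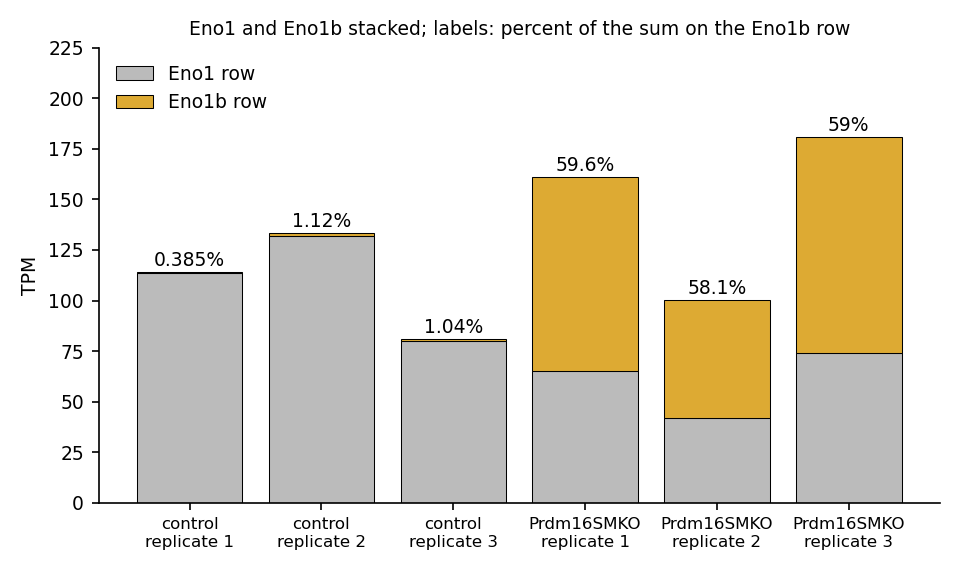
TPM of *Eno1* (grey) and *Eno1b* (yellow) stacked for each of the 6 libraries, with the percent of the sum on the *Eno1b* row above each bar. The percent is 0.385% to 1.12% in control and 58.1% to 59.6% in *Prdm16*SMKO libraries, while the heights of the bars overlap between the groups.

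*Eno2* was low and its groups overlapped. It was at 7.50, 11.2 and 8.04 TPM in control and at 20.5, 8.14 and 4.92 TPM in *Prdm16*SMKO mice, which held both the highest and the lowest library. Means were 8.91 ± 1.99 and 11.2 ± 8.20 TPM (SD, n = 3 each), a log2 difference of 0.10 (SE 0.43). The high value came from *Prdm16*SMKO replicate 1, and without that library the log2 difference was −0.44. The summed TPM of 10 sympathetic neuron markers was 53.9, 201 and 41.2 in control and 699, 95.7 and 75.0 in *Prdm16*SMKO mice, highest in the same library and next highest in control replicate 2, as *Eno2* was. *Th* and *Dbh*, enzymes of noradrenaline synthesis, were at 67.6 and 84.6 TPM in *Prdm16*SMKO replicate 1, at 8.43 and 13.8 TPM in control replicate 2 and at 0.13 TPM or less in the other 4 libraries. All 10 neuron markers had higher mean log2 values in *Prdm16*SMKO mice, against 54.2% of all genes. Limma called 0 of them (0.355% of all genes), and 0 had an unadjusted p under 0.05 (8.74% of all genes). Their part in the *Eno2* values was not tested.

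*Eno3* was of the same order as *Eno2*. It was at 11.9, 10.5 and 7.37 TPM in control and at 15.7, 11.1 and 10.7 TPM in *Prdm16*SMKO mice, so the groups overlapped. Means were 9.92 ± 2.33 and 12.5 ± 2.76 TPM (SD, n = 3 each), a log2 difference of 0.32 (SE 0.23). Its highest library was again *Prdm16*SMKO replicate 1, and without it the log2 difference was 0.15. Without control replicate 3, the lowest library, the *Eno3* difference was 0.13. The sum of 10 skeletal muscle markers was 15.3, 11.1 and 6.54 TPM in control and 88.4, 5.60 and 2.7 TPM in *Prdm16*SMKO mice, with *Myog*, the myogenic factor myogenin, at 0 in all 6 libraries. *Ckm*, the muscle creatine kinase, was at 16.6 TPM and *Tnnt3*, the fast skeletal troponin T, at 24.7 TPM in *Prdm16*SMKO replicate 1, against at most 5.55 and 4.25 TPM elsewhere. The sum of 9 cardiomyocyte markers was 29.5 to 43.3 TPM in control and 36.2 to 37.9 TPM in *Prdm16*SMKO mice. Of the 5 tested, 2 had a higher and 3 a lower mean of log2 values. In each direction 1 had an unadjusted limma p under 0.05 (40% of the 5, against 8.74% of all genes). Limma called 0 of the 5 (0.355% of all genes). The part of muscle tissue in the *Eno3* values was not tested.

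**Figure D3:**
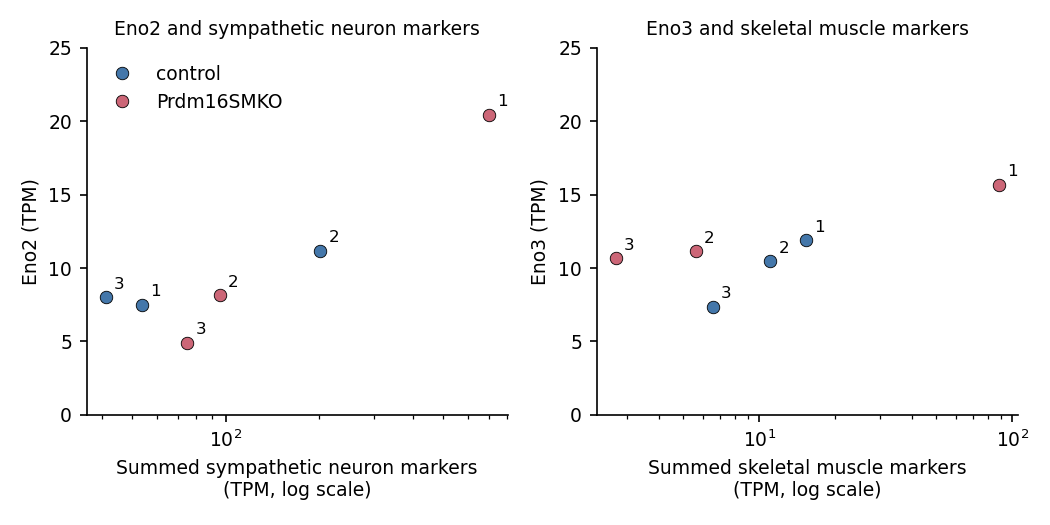
TPM of *Eno2* against the summed TPM of sympathetic neuron markers (left) and of *Eno3* against skeletal muscle markers (right, both horizontal axes logarithmic). Each point is a library with its replicate number, blue for control and red for *Prdm16*SMKO. *Prdm16*SMKO replicate 1 is highest on all 4 axes, with 20.5 TPM of *Eno2* and 15.7 TPM of *Eno3*.

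In both groups the order of the family by mean level was the same once *Eno1* and *Eno1b* were added. Their sum held 85.2 ± 1.04% of the TPM of the 4 rows in control and 85.9 ± 5.47% in *Prdm16*SMKO mice (SD, n = 3 each). *Eno2* held 7.06 ± 1.37% and 6.56 ± 3.93%, and *Eno3* 7.78 ± 1.09% and 7.56 ± 1.97%. *Eno2* and *Eno3*, neighbours in that order, did not differ beyond their spread in either group. Between libraries of a group, *Eno1* varied by 24.2% (coefficient of variation) in control and by 27.5% in *Prdm16*SMKO mice, *Eno3* by 23.4% and 22.1%, and *Eno2* by 22.4% and 73.4%. *Eno4*, a distant relative that is not a member, was at 0.06 TPM or less in every library.

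The genes of glycolysis around enolase had mostly higher means, and 0 of 40 passed the test. Of 45 listed genes of glycolysis and pyruvate use, 40 were tested, 33 had a higher and 7 a lower mean of log2 values in *Prdm16*SMKO mice, and limma called 0 of them (0.355% of all genes were called). At an unadjusted p under 0.05 stood 2 higher and 1 lower, or 7.5% of the list against 8.74% of all genes, and 82.5% of the list had a higher mean, against 54.2% of all genes. Their median log2 difference was 0.18, against 0.02 over all genes tested, and 5 of 40 (12.5%) did not overlap between the groups, against 12.8% of all genes. Of the 16 core enzymes, 13 had a higher and 3 a lower mean and the groups overlapped for all of them. *Pgam1*, the phosphoglycerate mutase just before enolase, was at 88.4 ± 15.7 and 97.9 ± 14.4 TPM (SD, n = 3 each), a log2 difference of 0.15 (SE 0.19, limma adjusted p = 0.922). *Pkm*, the pyruvate kinase just after it, was at 265 ± 59.5 and 277 ± 45.2 TPM, with 0.07 (SE 0.20, limma adjusted p = 0.977). *Gapdh* (0.05), *Pgk1* (0.19), *Tpi1* (0.13), *Gpi1* (−0.02) and *Aldoa* (0.24) lay between these enzymes and the start of the pathway, and *Hk1*, a hexokinase, and *Ldha*, the lactate dehydrogenase A chain, had log2 differences of 0.48 and 0.43. The largest differences of the list were those of *Slc2a3*, a glucose transporter, at 1.20 (limma adjusted p = 0.390), and *Aldoc*, an aldolase known from brain, at 1.09 (limma adjusted p = 0.825). *Aldoc* was at 6.91 TPM in *Prdm16*SMKO replicate 1 and at 1.12 TPM or less in the other libraries.

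**Figure D4:**
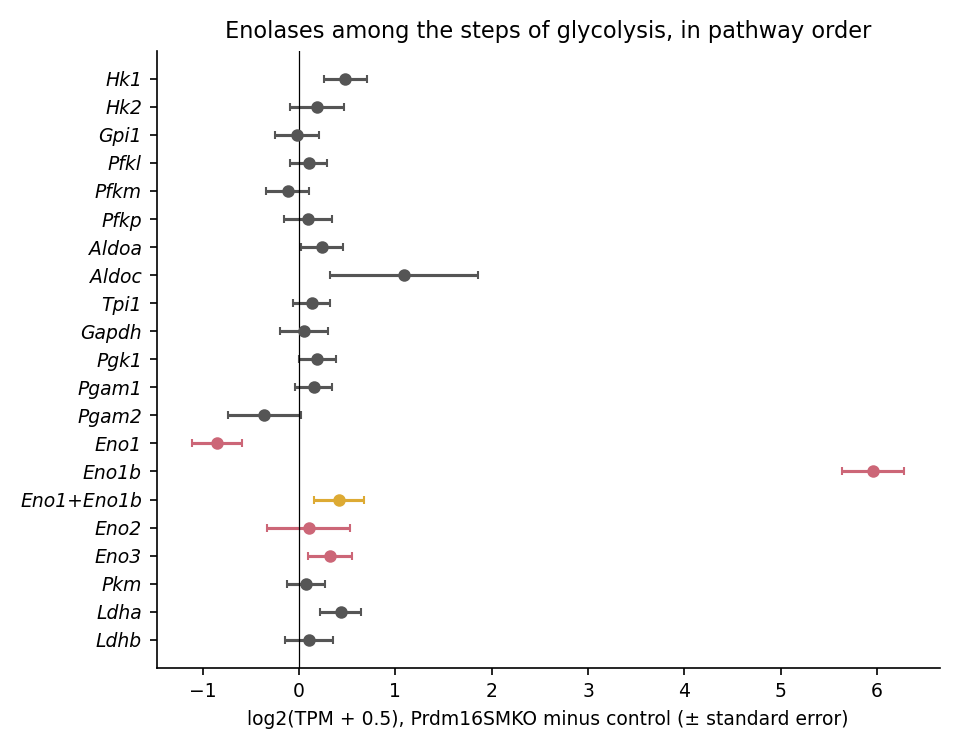
Difference in log2(TPM + 0.5), *Prdm16*SMKO minus control, with its standard error (n = 3 per group) for 16 core glycolysis enzymes (grey) and the enolases (red, with the *Eno1* and *Eno1b* sum in yellow), in pathway order from top to bottom. *Eno1* at −0.85 and *Eno1b* at 5.96 lie on opposite sides of enzymes that range from −0.36 to 1.09, and the sum at 0.41 lies among them.

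Set against other glycolytic transcripts of the same library, the *Eno1* row was out of proportion in *Prdm16*SMKO mice and the sum less so. *Eno1* TPM was 122 ± 9.69% of *Pgam1* TPM in control and 61.0 ± 8.76% in *Prdm16*SMKO mice, without overlap, while the sum was 123 ± 9.58% and 149 ± 23.0%, with overlap (SD, n = 3 each). Relative to *Ldha*, *Eno1* stood at 91.8 ± 9.59% and 37.9 ± 6.17%, and the sum at 92.6 ± 9.78% and 92.5 ± 16.6%. By library the sum was 91.1%, 103% and 83.7% of *Ldha* in control and 111%, 78.6% and 87.9% in *Prdm16*SMKO mice. Relative to *Pkm* the sum was 41.2 ± 4.35% and 53.2 ± 13.8%, and relative to *Gapdh* 23.2 ± 2.68% and 30.3 ± 7.67%, again with overlap. The *Eno1* row alone did not overlap between the groups relative to any of *Gapdh*, *Pgk1*, *Pgam1*, *Pkm*, *Ldha* and *Tpi1*.

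Rows named as copies of glycolysis genes were looked up to see whether they also differed. They were found by a symbol of the list, or of an enolase, followed by -ps or -rs, with a few genes added by name. Copies under other names were not searched for. Of the 19 rows found, counting *Eno4*, 12 were listed at 0 in every library and 4 more were at 0.28 TPM or less. *Mpc1-ps*, a processed copy of a mitochondrial pyruvate carrier gene, was at 78.6, 53.1 and 54.6 TPM in control and at 49.2, 42.8 and 124 TPM in *Prdm16*SMKO mice, a log2 difference of 0.07 (limma adjusted p = 0.990). *Pgk1-rs7*, a processed copy of *Pgk1*, was at 0.08, 2.62 and 2.25 TPM in control and at 13.2, 0 and 14.4 TPM in *Prdm16*SMKO mice, 1.45 on the log2 scale (limma adjusted p = 0.869). Its lowest and its highest library were both *Prdm16*SMKO libraries, unlike *Eno1b*. *Pgam1-ps2* was at 0.37 to 1.33 TPM with overlap.

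The other side of alpha-enolase, its binding of plasminogen, was followed through 16 genes of the plasminogen system, of which 11 were tested, 7 had a higher and 4 a lower mean, and limma called 0 (0.355% of all genes). At an unadjusted p under 0.05 stood 2 of the 11, both higher, or 18.2% against 8.74% of all genes, and the same number did not overlap (18.2%, against 12.8%). The median log2 difference was 0.04, against 0.02 over all genes. The largest differences were those of *Plat* and *S100a10*. *Plat*, the tissue plasminogen activator, was at 19.4, 26.1 and 17.7 TPM in control and at 38.9, 43.8 and 35.3 TPM in *Prdm16*SMKO mice, 0.90 on the log2 scale (SE 0.18, limma adjusted p = 0.106). Every *Prdm16*SMKO library stood above every control library, but the adjusted p passed the threshold only under 4 of 16 alternative settings, at 0.00751 to 0.0292. *S100a10*, a subunit of the annexin A2 plasminogen receptor, had means of 138 TPM in control and 193 TPM in *Prdm16*SMKO mice, 0.48 on the log2 scale, and was not called (SE 0.14, limma adjusted p = 0.304). *Plg*, the plasminogen gene itself, was at 0.07 TPM or less in every library.

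Genes of the response to low oxygen, which is known to induce *Eno1*, went in both directions, more of them higher. The list holds regulators of the response as well as induced genes. Of 26 tested, 19 had a higher mean (73.1%, against 54.2% of all genes) and 7 a lower mean. Limma called 0 (0.355% of all genes). At an unadjusted p under 0.05 stood 2 higher and 2 lower, or 15.4% against 8.74% of all genes, and 4 did not overlap (15.4%, against 12.8%). The median log2 difference was 0.05, against 0.02 over all genes. The largest differences were those of *Ndrg1*, a stress-responsive gene, at −0.54 (limma adjusted p = 0.452), and *Ddit4*, an inhibitor of mTORC1, at 0.54 (limma adjusted p = 0.489).

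*Eno1* and *Prdm16* lie on the same chromosome, 4.07 Mb apart, with *Prdm16* at 154316125 to 154636873. Only *Prdm16*SMKO mice carried the floxed allele. Whether the chromosome around it differs in sequence between the groups was not tested. Of the 32 tested genes between them, 13 had a higher and 19 a lower mean, and limma called 0 (0.355% of all genes were called). An unadjusted limma p under 0.05 was found for 6 of the 32 (2 higher and 4 lower), against 8.74% of all genes. Within 1 Mb of *Eno1*, 26 genes were tested, 11 with a higher and 15 with a lower mean, and the median log2 difference was −0.02. The groups did not overlap for 8 of the 26 (30.8%, against 12.8% of all genes), and 7 (26.9%) had an unadjusted p under 0.05, against 8.74% of all genes. Limma's adjusted threshold was passed by 1 of the 26, against 0.355% of all genes. This gene was *Rbp7*, a retinol-binding protein gene, at 6.41, 6.67 and 7.55 TPM in control and at 22.6, 18.6 and 37.8 TPM in *Prdm16*SMKO mice (log2 difference 1.80, SE 0.25, limma adjusted p = 0.0311). That call was lost without any 1 of the 3 control libraries and under 3 other scalings, as well as with no expression minimum, without a variance trend and with the replicate number as a block. *Gpr157*, an orphan receptor gene and the nearest tested gene before *Eno1*, 131 kb away, had a log2 difference of −0.31 (limma adjusted p = 0.884), and *Rere*, an atrophin-family corepressor gene 32.8 kb after it, one of 0.40 (limma adjusted p = 0.567). *Eno1b* lies in a part of the genome with little expression in this tissue. Only 2 of 19 genes within 1 Mb of it were tested. Limma called 0 of them (0.355% of all genes), and 0 had an unadjusted p under 0.05 (8.74% of all genes). They were *Sema6a*, a semaphorin gene 676 kb before *Eno1b*, at −0.15 (limma adjusted p = 0.952), and *Commd10* at 0.06 (limma adjusted p = 0.988). The nearest tested gene after *Eno1b*, *Dtwd2*, lies 1650 kb away and had a log2 difference of 0.13 (limma adjusted p = 0.967).

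**Figure D5:**
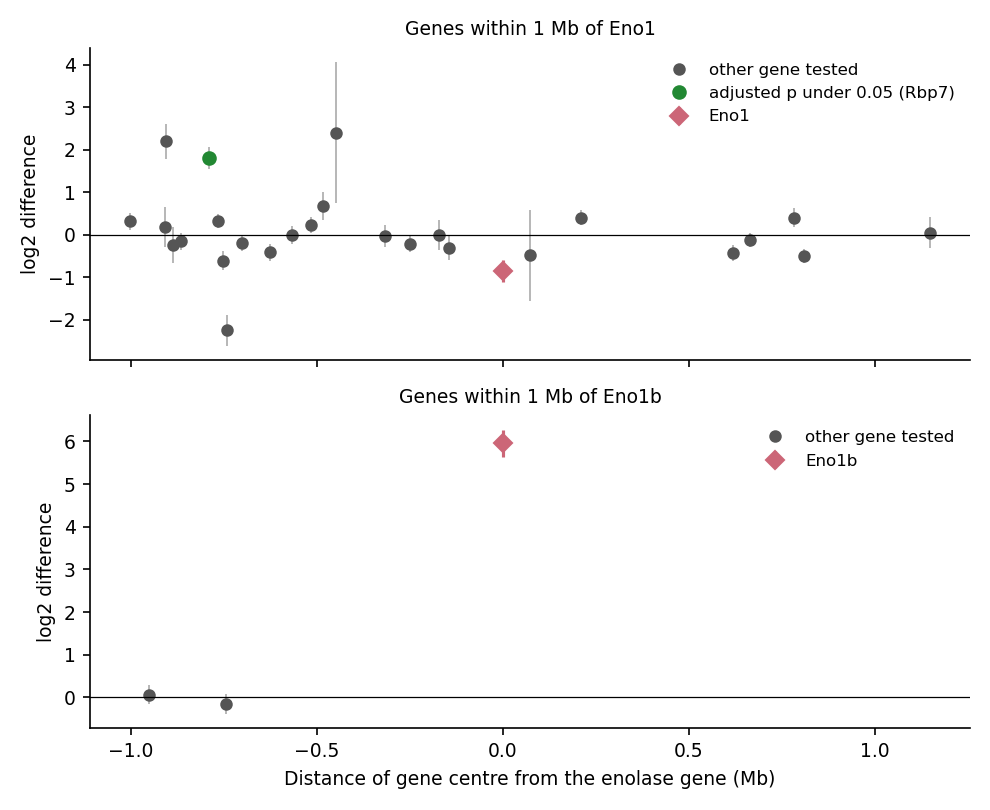
Difference in log2(TPM + 0.5), *Prdm16*SMKO minus control, with its standard error for the tested genes within 1 Mb of *Eno1* (26 genes, top) and of *Eno1b* (2 genes, bottom), by the distance between gene centres in Mb. The enolases are red diamonds at 0 and the called gene *Rbp7* is green. *Eno1b*, at 5.96, has no neighbour with a difference of its size.

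The genes most like each member were named by how closely their log2(TPM + 0.5) values, centred on their own mean, followed it over the 6 libraries, among the 9665 genes averaging 5 TPM or more. The measure of likeness was the root mean square difference, and small values mean alike. *Tnnt2*, which encodes cardiac troponin T, was nearest to *Eno1b* with 0.436, against a median of 3.01 over the genes. It was at 5.76, 11.9 and 6.08 TPM in control and at 346, 320 and 304 TPM in *Prdm16*SMKO mice. *Ankrd1*, a striated muscle ankyrin repeat gene, was much farther away, at 1.83. Those nearest to *Eno1* were *CAAA01118383.1* (0.198), *C1qtnf12* (0.199) and *Atg16l2* (0.209), against a median of 0.542. The *Eno1* and *Eno1b* sum had closer neighbours than either row, namely *Cisd1*, a mitochondrial outer membrane gene (0.0681), *Mdh2*, the mitochondrial malate dehydrogenase (0.0791), and *Gm13340* (0.0900), against a median of 0.414. Nearest to *Eno2* were *Apba1*, a neuronal adaptor gene (0.0967), *Cyb561*, the cytochrome of chromaffin and other neurosecretory vesicles (0.123), and *Lyst* (0.154), all of them also highest in *Prdm16*SMKO replicate 1. Nearest to *Eno3* were *Klhdc4* (0.0437), *Stat2* (0.0666) and *Snhg20* (0.0697), against a median of 0.312. With 6 libraries that share their scaling, many genes come this close to a member of small spread, and these distances are a description.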

How the data were processed

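Polyadenylated RNA of abdominal aorta was sequenced as pairs of 151 bp, with a stated average depth of 40 M pairs per library. The authors deposited TPM values for 55426 genes, 1 column per library, in a table whose columns matched the 6 samples by name (0 columns matched no sample). Per the submitters' processing notes, cutadapt 2.3, FastQC 0.11.8, STAR 2.7.8a, RSEM 1.3.3 and MultiQC 1.7 were used with GRCm38. The annotation, the strand setting and the treatment of reads with several matches are not given in the sources used here. Identical libraries were looked for, and 0 pairs found. The study gives n = 3 mice per group, and the labels do not say more of their origin. The p-values thus set the group difference against the spread between these libraries only.

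The 4 members, the gene lists and the rule for named genes were chosen with earlier results of these data known. Expression was log2(TPM + 0.5) for genes whose mean reached 0.5 TPM, fitted with limma 3.58.1 in R 4.3.3 (moderated variances with a trend, two-sided, Benjamini-Hochberg adjusted over 15775 genes, called under 0.05) and tested on simulated data. For *Eno1* and *Eno1b* together, TPM were summed and the sum was fitted as 1 row in place of the 2 rows. Named were the members, core glycolysis enzymes, called genes of a list or otherwise its 2 largest differences, the nearest tested neighbours, the 3 genes most alike each member, copies above 0 (at most 8) and *Prdm16*. One gene that this rule names is not reported here. *Plat* and *S100a10* were named as the 2 largest differences of the plasminogen list, and *Commd10* as 1 of the 2 tested neighbours of *Eno1b*. *Plg* and single markers were named for their role. Positions and sequences came from the GENCODE M21 annotation of GRCm38, in which 55240 of the genes were found. Alternatives were other pseudocounts, expression minimums, scalings, variance settings and weights, a replicate block, and each library left out. Figures used Python 3.11.15, pandas 2.3.3, numpy 2.4.6 and matplotlib 3.10.9.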

Additional observations from a re-analysis of the deposited data

How the results depend on the processing

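Over 16 alternatives the log2 difference ranged from −1.05 to −0.61 for *Eno1*, from 5.51 to 6.50 for *Eno1b* (6.50 with a pseudocount of 0.1), from 0.21 to 0.67 for their sum and from 0.08 to 0.46 for *Eno3*, without a change of sign. *Eno2* ranged from −0.44 to 0.54 and was negative in 2 of 16, at −0.44 without *Prdm16*SMKO replicate 1 and at −0.01 without control replicate 1.

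The number of genes called over the whole table, 56 (29 higher, 27 lower), was 10 with no expression minimum, 153 with median-of-ratios size factors (61 higher, 92 lower), 129 with quantile normalization (46 higher, 83 lower), 123 with TPM rescaled without mitochondrial and 45S rows (55 higher, 68 lower), 33 without a variance trend, 494 with array weights, 77 at a minimum mean of 2 TPM (31 higher, 46 lower), and 5 to 61 with 1 library left out (5 without control replicate 2, 17 without control replicate 1 or 3, and 28 without *Prdm16*SMKO replicate 2). Same-numbered libraries did not deviate together (correlations −0.131, −0.11 and 0.0188), and differently numbered pairs ranged from −0.167 to 0.242. Whether the numbers mark a litter or batch is not given in the labels, and these correlations cannot decide it. With a replicate block 4 genes were called, and the members' differences were the same values, with standard errors larger for *Eno1* (0.30), *Eno1b* (0.37) and the sum (0.31), the same for *Eno2* (0.43) and smaller for *Eno3* (0.14).

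Glycolysis genes called were 0 under all 16 alternatives, with a median of 0.01 to 0.28. Plasminogen genes called were 1 with size factors, 1 with quantile normalization, 1 with rescaled TPM and 2 with array weights, and their median was −0.06 to 0.16 with 1 library left out. Hypoxia genes called were 1 with array weights (*Ddit4*). Genes called within 1 Mb of *Eno1* were 0 with no minimum, size factors, quantile normalization or the replicate block, 2 with rescaled TPM, 3 with array weights, and 0 to 1 with 1 library left out. The causes of these shifts were not tested. TPM hold no read depth, so a value near 0, such as *Eno1b* in control mice, has an unknown counting error.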
